A study of Mus musculus with 11 samples.

Results

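The Schwann cell precursor markers are 8 genes, Sox10, Erbb3, S100b, Foxd3, Fabp7, Cdh19, Ngfr and Sox2, chosen by name as genes known to mark these cells. Of the 8, 7 had at least 1 probe on the array, with 11 probes among 41174, and 17016 named genes were on the array in all. Sox10 had no probe carrying its RefSeq accession and was not analysed here. Of the other 7, 6 were tested, having a brightest probe that cleared background on 4 or more of 11 arrays, and Cdh19 was not, with 2 arrays above background.

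RNA came from cells positive for enhanced green fluorescent protein that were sorted from adrenal glands of mouse embryos, at E17.5 or E18.5, late in gestation. The wild-type group was Star+/+ with 7 mice, 3 labelled male and 4 female, and the knockout group was Star-/- with 4 mice, all labelled male. Both groups carried the fluorescent reporter, whose promoter the sources used here do not name. From each mouse 1 ng of total RNA with an integrity number of at least 7.0 was linearly amplified, labelled with Cy3 and hybridised to 1 single-colour Agilent array, so the replicates are separate mice. Slide 1 held wild-type arrays 1 and 2 and knockout arrays 1 and 2, wild-type array 3 and knockout arrays 3 and 4 were on slide 2, and wild-type arrays 4 to 7 were on slide 3 with no knockout array.

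Schwann cell precursors are glial cells of neural crest origin that travel along growing nerves. They depend on neuregulin from axons, read through the receptor pair ErbB2 and ErbB3, and on the transcription factor SOX10, and they give rise to Schwann cells, melanocytes, parasympathetic neurons and, in the adrenal medulla, a large part of the chromaffin cells. In the adrenal gland they reach the medulla along visceral nerves, pass through a transient bridge state and then turn on the genes of catecholamine synthesis. The sorted cells are labelled as adrenocortical, and 13 to 14 of 14 tested adrenocortical genes were well above background on every array. Of 15 tested chromaffin cell genes 13 to 15 were so too, so these counts do not tell the cell types apart. None of the listed genes is exclusive to the lineage: SOX2 and FABP7 also occur in neural progenitors, and NGFR in some mesenchymal cells.

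Array-wide facts were as follows. The 75th percentile of the signal ran from 115 on wild-type array 3 to 706 on knockout array 1, and between 46.3% and 64.1% of probes were well above background. Star, the deleted gene, had a level of 5.75 ± 1.82 (SD, n = 7) in wild-type and 2.37 ± 0.73 (SD, n = 4) in knockout arrays, with a fitted difference of −4.70 ± 0.93 (SE, adjusted p 0.057 by limma), and whether its probe lies inside the deleted stretch is unknown here. Levels throughout are log2 of the processed signal of a probe relative to its array's 75th percentile, which stands at 0, and differences are knockout minus wild-type on that log2 scale. The fit had genotype and slide as terms, so each difference rests on slides 1 and 2, while slide 3 contributes to the error alone. A gene was called at an adjusted p under 0.05 over all 21105 genes tested. In RNA of a sorted population, fewer cells of a type and less RNA per cell cannot be told apart.

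Within slides 1 and 2 the 4 markers measured above background on every array, Foxd3, Ngfr, S100b and Fabp7, were higher in the knockout arrays, by 0.55 to 2.31 on the log2 scale, but none of the 6 tested passed the test over all genes. Erbb3 and Sox2 were not well above background on the wild-type arrays of those slides, so the size and direction of their differences there are not settled. On slide 3, wild-type arrays 5, 6 and 7 carried the highest levels of Ngfr, S100b and Erbb3 of all arrays. Wild-type array 4 carried the lowest levels of Foxd3, Ngfr and Fabp7. Erbb3 and Sox2 also read lowest on array 4, but they were not well above background there, so those values are only bounds. The wild-type group therefore spanned the knockout group for 4 of the 6 markers, Erbb3, Fabp7, Ngfr and S100b. For comparison, 53.1% of all genes tested had a knockout range inside the wild-type range, so that count is near the background.

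**Figure D1:**
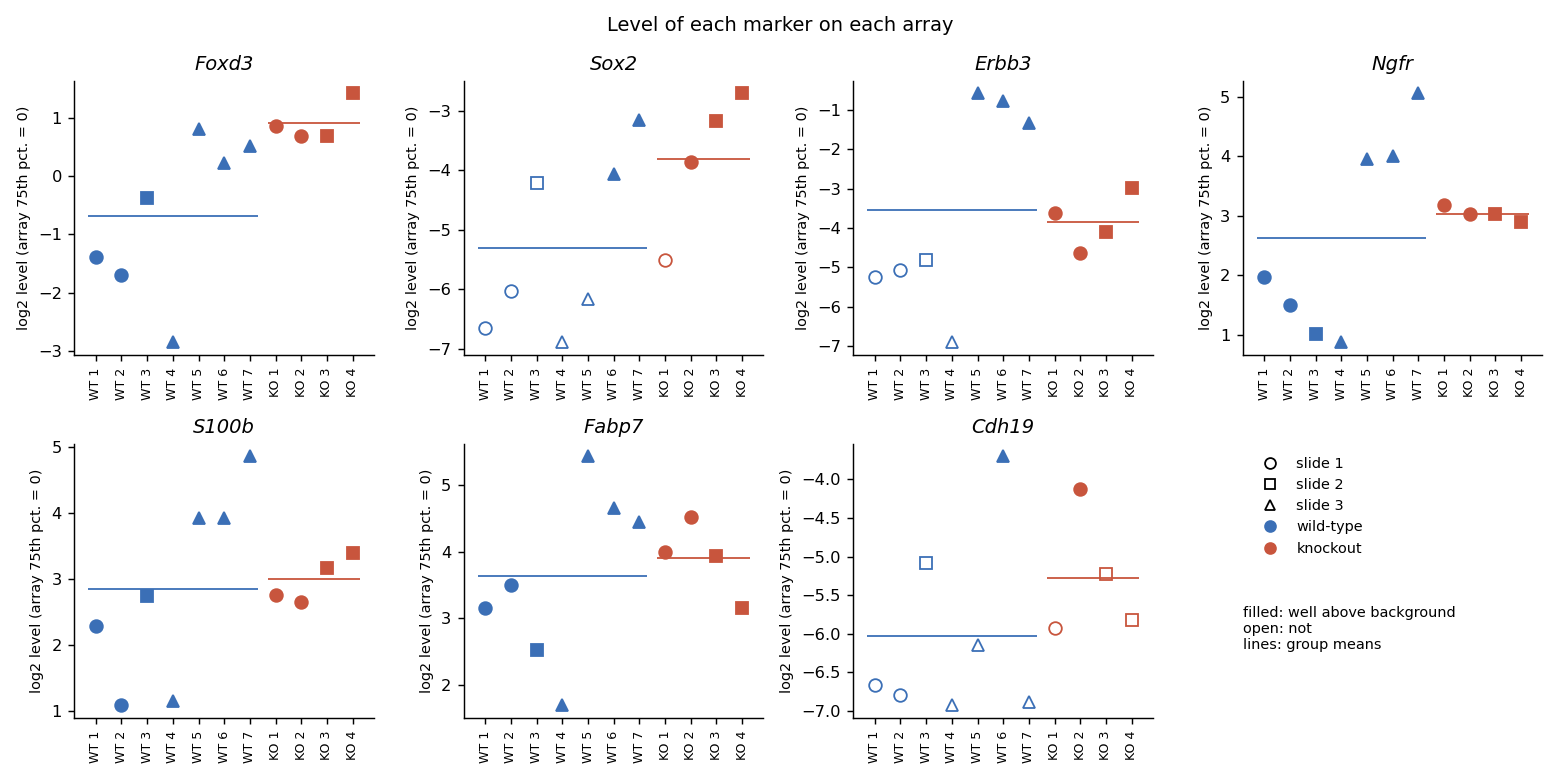
Level of each marker on each of the 11 arrays, as log2 signal relative to the array's 75th percentile, with wild-type (WT) arrays in blue and knockout (KO) arrays in red. Symbol shape gives the slide, filled symbols are well above background, open ones are not, and lines are group means: the 4 Ngfr values of the knockout lie between 2.90 and 3.19, while the 7 wild-type values run from 0.87 to 5.06.

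The promoters of the 4 markers that were well above background on all 11 arrays are printed because their levels covaried across arrays, as described further on. They are the 250 bases before the start of each gene in RefSeq on build GRCm38.p6, read 5′ to 3′ on the gene's strand, and 5 of the 8 markers were found in that table. Capitals mark matches, on either strand, to the SOX core motif ACAAAG or ACAATG, to the TATA box motif TATAAA, to the GC box motif GGGCGG or to the CCAAT box motif.
Foxd3 chr4:99656049-99656298, plus strand: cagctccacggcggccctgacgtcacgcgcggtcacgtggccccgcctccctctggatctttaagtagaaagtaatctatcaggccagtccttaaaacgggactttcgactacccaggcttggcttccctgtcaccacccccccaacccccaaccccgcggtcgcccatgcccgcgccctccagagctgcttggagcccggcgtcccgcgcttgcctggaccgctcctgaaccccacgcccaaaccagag
Ngfr chr11:95587699-95587948, minus strand: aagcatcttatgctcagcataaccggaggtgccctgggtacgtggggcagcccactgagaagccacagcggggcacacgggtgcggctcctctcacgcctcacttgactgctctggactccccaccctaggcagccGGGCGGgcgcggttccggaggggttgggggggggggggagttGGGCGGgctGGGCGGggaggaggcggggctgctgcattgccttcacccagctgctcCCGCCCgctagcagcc
S100b chr10:76253586-76253835, plus strand: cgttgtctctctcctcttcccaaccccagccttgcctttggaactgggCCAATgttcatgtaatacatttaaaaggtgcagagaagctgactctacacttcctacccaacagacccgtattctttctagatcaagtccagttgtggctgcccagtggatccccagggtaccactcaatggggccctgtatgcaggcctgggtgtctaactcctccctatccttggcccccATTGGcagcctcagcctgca
Fabp7 chr10:57784673-57784922, plus strand: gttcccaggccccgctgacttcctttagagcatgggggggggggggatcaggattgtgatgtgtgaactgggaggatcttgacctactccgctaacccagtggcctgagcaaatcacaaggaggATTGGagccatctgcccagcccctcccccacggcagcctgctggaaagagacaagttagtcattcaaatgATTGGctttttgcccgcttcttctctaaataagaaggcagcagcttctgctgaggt
None of these motifs was in all 4 windows. Foxd3 had no match, Ngfr had 4 GC boxes, and S100b and Fabp7 had 2 CCAAT boxes each. Of 32851 promoters of the same length, 32.7% held a GC box, 33.9% a CCAAT box, 25.2% a SOX core and 12.4% a TATA box. GC content was 65.6% for Foxd3, 70.4% for Ngfr, 53.6% for S100b and 54.8% for Fabp7, against a median of 52.4%. The fifth promoter, of Sox2, lies on the plus strand at chr3:34649745-34649994 and held 1 SOX core, 2 GC boxes and 1 CCAAT box. A match to letters is a description and not a binding site.

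Among the transcription factors, Foxd3, a forkhead repressor that keeps neural crest cells undifferentiated and holds back the melanocyte fate, gave the largest difference. Its level on slide 1 was −1.38 and −1.69 in wild-type arrays 1 and 2 and 0.86 and 0.68 in knockout arrays 1 and 2. On slide 2 it was −0.38 in wild-type array 3 and 0.68 and 1.41 in knockout arrays 3 and 4. All 4 knockout values thus lay above the 3 wild-type values of their slides. On slide 3 wild-type array 4 was at −2.85, and arrays 5, 6 and 7 at 0.80, 0.22 and 0.52. Of the wild-type arrays, array 5 alone overlapped the knockout range. The group levels were −0.68 ± 1.34 (SD, n = 7) in wild-type and 0.91 ± 0.35 (SD, n = 4) in knockout arrays. The fitted difference was 1.95 ± 0.80 (SE), with a 95% confidence interval of 0.17 to 3.74 and an adjusted p of 0.24 by limma. Foxd3 was the only 1 of the 6 at an unadjusted p under 0.05, in limma's moderated test across all genes, where 8.37% of all genes were higher at that level and 8.34% were so with the same direction within both slides. Without the slide term its difference was 1.59, with an adjusted p of 0.241 by limma. Leaving out wild-type array 4, the lowest, gave the same difference with an adjusted p of 0.0292 by limma. That setting called 561 of all 21105 genes, against 175 with all arrays, so passing there is not particular to Foxd3.

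Sox2, a transcription factor of neural and glial progenitors that is switched off as Schwann cells myelinate, was near background on many arrays. It was not well above background on wild-type arrays 1, 2 and 3, at −6.65, −6.03 and −4.22. In the knockout it was not well above background on array 1, at −5.51, and was so on arrays 2, 3 and 4, at −3.86, −3.16 and −2.71. On slide 3 wild-type arrays 4 and 5 were below that limit, at −6.89 and −6.16, and arrays 6 and 7 above it, at −4.06 and −3.16. The groups overlapped. The fitted difference of 1.51 ± 0.86 (SE, adjusted p 0.377 by limma) rests on values that are only bounds in those 3 wild-type arrays and in knockout array 1, and no fold is given. With a normexp background the difference turned to −0.12.

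The receptors came next. Ngfr, the low-affinity neurotrophin receptor p75, is a surface marker of neural crest cells and immature Schwann cells. Its level was 1.97 and 1.49 in the wild-type and 3.19 and 3.03 in the knockout arrays of slide 1. On slide 2 it was 1.00 in the wild-type and 3.02 and 2.90 in the knockout arrays. On slide 3 wild-type array 4 was at 0.87 and arrays 5, 6 and 7 at 3.95, 4.01 and 5.06. The knockout arrays were close together, at 3.03 ± 0.12 (SD, n = 4), and lay in the gap between the 4 lower and the 3 higher wild-type arrays, which averaged 2.62 ± 1.69 (SD, n = 7) in all. The fitted difference was 1.61 ± 0.83 (SE), with an adjusted p of 0.334 by limma. Without the slide term it was 0.41, with an adjusted p of 0.844 by limma, so its size depended on whether slide 3 was compared with the knockout.

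A second Ngfr probe gave another picture. Its wild-type levels were −2.02, −2.40, −3.06, −4.82, −3.71, −4.34 and −4.62 from array 1 to array 7, and its knockout levels −2.53, −2.52, −3.13 and −3.47. It was dim, well above background on 9 arrays, and low on wild-type arrays 5, 6 and 7, where the first probe was highest. On wild-type array 4 both probes were at their lowest, the second not well above background there. Over the 11 arrays the probes correlated at r = −0.31 (Spearman's rho = −0.28), given as a description. Its own fitted difference was −0.28 ± 0.36 (SE), with an adjusted p of 0.714 by limma when every probe was tested on its own. The Ngfr values reported here are therefore those of 1 probe that the other did not match.

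Erbb3, the receptor that binds neuregulin and signals by pairing with ErbB2, was not well above background on wild-type arrays 1 to 4, at −5.24, −5.08, −4.80 and −6.91. It was well above background on wild-type arrays 5, 6 and 7, at −0.58, −0.78 and −1.34, the 3 highest values of all arrays. All 4 knockout arrays were above background, at −3.61 and −4.65 on slide 1 and −4.11 and −3.00 on slide 2. On slides 1 and 2 the knockout values lay above the wild-type ones as read, but the lowest signal above background on wild-type array 3 was −3.11, above 3 of the 4 knockout values, so no lower bound on a fold is given. The fitted difference was 1.12 ± 1.35 (SE), with an adjusted p of 0.687 by limma, and it turned to −0.31 without the slide term and to −0.23 with a normexp background. Of its 4 probes, another followed the same pattern (r = 0.99 over 11 arrays, fitted difference 1.43 ± 1.21, SE, adjusted p 0.565 by limma), and the remaining probes were above background on 1 and 0 arrays.

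S100b, a calcium-binding protein of glial cells, stood at 2.29 and 1.09 in the wild-type and 2.76 and 2.64 in the knockout arrays of slide 1. On slide 2 it was 2.73 in the wild-type and 3.16 and 3.40 in the knockout arrays. On slide 3 wild-type array 4 was at 1.15 and arrays 5, 6 and 7 at 3.92, 3.92 and 4.86. The knockout was higher within both slides, but knockout array 2 lay below wild-type array 3 of the other slide. The fitted difference was 0.83 ± 0.77 (SE), with an adjusted p of 0.59 by limma. It was 0.14 without the slide term and 0.48 without wild-type array 2.

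Fabp7, the brain fatty acid-binding protein of radial glia and Schwann cell precursors, was 3.15 and 3.50 in the wild-type and 4.00 and 4.52 in the knockout arrays of slide 1. On slide 2 it was 2.53 in the wild-type and 3.94 and 3.15 in the knockout arrays. On slide 3 wild-type array 4 was at 1.70 and arrays 5, 6 and 7 at 5.44, 4.67 and 4.45. Knockout array 4 lay below wild-type array 2 of the other slide, so the groups overlapped once slides were mixed. The fitted difference was 0.97 ± 0.77 (SE), with an adjusted p of 0.521 by limma, and it was 0.27 without the slide term.

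Cdh19, a cadherin of migrating Schwann cell precursors, was well above background on wild-type array 6, at −3.70, and knockout array 2, at −4.12. On the other arrays it lay between −6.93 and −5.08 and was not well above background. No comparison between genotypes was possible at this signal.

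**Figure D2:**
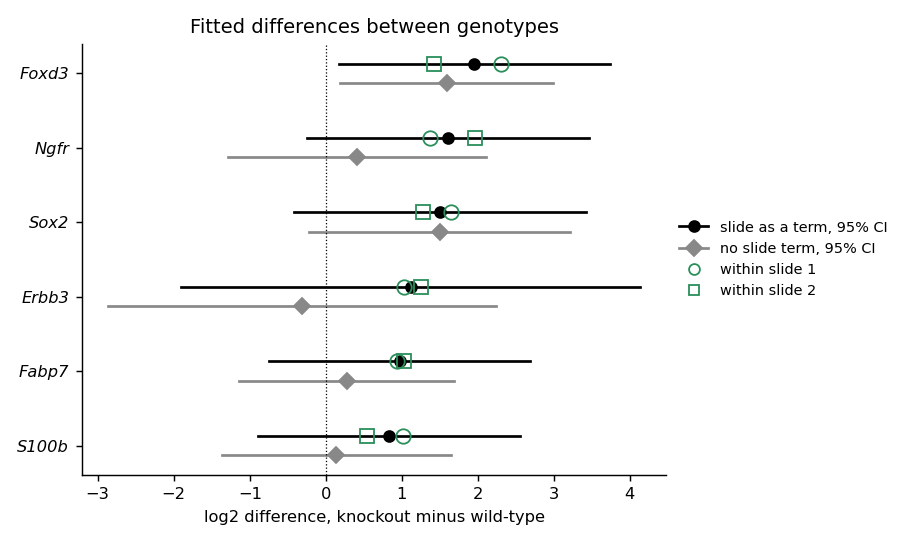
Fitted difference between genotypes for the 6 tested markers, knockout minus wild-type on the log2 scale, with 95% confidence intervals, with slide as a term (black) and without (grey), and the difference within slides 1 and 2 (green). All within-slide differences lie above 0, those of Erbb3 and Sox2 against wild-type values not above background, and without the slide term Erbb3 lies at −0.31 and Ngfr at 0.41.

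Counted together, 0 of 6 markers were called, where 0.829% of all genes were called and 0.602% were called as higher in the knockout. Beside this count of 0, limma gave 1 marker at an unadjusted p under 0.05. All 6 had a fitted difference above 0, where 43.1% of all genes did, and a higher value within both slides, where 25.6% of all genes had one, but for Erbb3 and Sox2 these are differences from wild-type values not above background. For Foxd3 and Ngfr every knockout array lay above wild-type arrays 1, 2 and 3, and by its values as read also for Erbb3, which held for 9.07% of all genes, and in 0 of 6 did every knockout array lie above all 7 wild-type arrays, which held for 4.1%. The median difference of the 6 was 1.31, against −0.16 over all genes, with 1.20 within slide 1 and 1.27 within slide 2. Without the slide term it was 0.34 against 0.06 over all genes, 5 of 6 were above 0, and 0 of 6 were called, where 2.86% of all genes were called, 2.2% as higher. At an unadjusted p under 0.05 that fit had 1 of 6 markers, Foxd3, where 16.4% of all genes passed in either direction. On slide 2 the labels give a female wild-type mouse and 2 male knockout mice. With labelled sex as a further term the median of the 6 was 0.86, with Ngfr at 0.98, Sox2 at 0.89, Erbb3 at 0.72 and S100b at 0.41, and with slide as a random block Ngfr was 0.97, Fabp7 0.59, S100b 0.48 and Erbb3 0.37.

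The arrays of slides 1 and 2 alone, an alternative chosen after seeing the data, gave the same differences with smaller errors: 2 of 6 markers were then called, Foxd3 with an adjusted p of 0.0452 and Ngfr with 0.0485 by limma. In that fit 2.53% of all genes were called and 1.65% were called as higher, on 4 residual degrees of freedom in place of 7. The median SD among wild-type arrays was 1.46 for the 6 markers and 0.98 over all genes, while among knockout arrays it was 0.458 and 0.461.

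Most pairs of markers covaried from array to array. All 15 pairs had a positive correlation over the 11 arrays, with r from 0.256 to 0.885 and a median of 0.716, and 11 of 15 had an adjusted p under 0.05 by permutation, adjusted over the 15 pairs. The permutation treats arrays of both genotypes and all slides as exchangeable. No share over pairs of other genes was computed, so the count is not shown to be particular to these markers. By Spearman's rho 5 of 15 passed, each of them among Erbb3, Ngfr, S100b and Fabp7. Sox2, above background on 5 arrays, passed by r with 1 of its 5 partners, Foxd3. Within the 7 wild-type arrays r ran from 0.359 to 0.944 with a median of 0.852, and 8 of 15 pairs passed by the exact permutation test on r and 0 of 15 on rho (lowest adjusted p 0.0853). After removal of the genotype and slide terms r ran from 0.468 to 0.958. That step kept the spread within slide 3, where Ngfr was 0.87 on wild-type array 4 and 3.95, 4.01 and 5.06 on arrays 5, 6 and 7. Within slides 1 and 2 r ran from 0.0285, for S100b and Fabp7, to 0.873 with a median of 0.669, and 1 of 15 pairs passed, Foxd3 with S100b (r = 0.858, exact permutation p adjusted 0.0387). All genes of an array share 1 RNA sample, 1 amplification and 1 scaling factor, so arrays and not genes are the replicates here.

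The closest pair was Ngfr and S100b, with r = 0.885 (permutation p 0.0003, adjusted 0.0024) and Spearman's rho = 0.827 (permutation p 0.0027, adjusted 0.0101). Without the 2 arrays farthest from the median Ngfr level r was 0.763, among wild-type arrays alone it was 0.908, and within slides 1 and 2 it was 0.562 (exact permutation p adjusted 0.261). Ngfr and Fabp7 gave r = 0.842 (permutation p 0.0015, adjusted 0.0056), rho = 0.891 (permutation p 0.0006, adjusted 0.0042) and r = 0.855 without the 2 farthest arrays. By Ngfr the knockout arrays sat between the lower and the higher wild-type arrays, while by S100b knockout array 2 lay below wild-type array 3, and by Fabp7 knockout array 4 lay below wild-type array 2 and knockout array 2 above wild-type array 7. Erbb3 followed S100b (r = 0.883, permutation p 0.0003, adjusted 0.0024, rho = 0.918, permutation p 0.0002, adjusted 0.0026) and Ngfr (r = 0.876, permutation p 0.0006, adjusted 0.0028, rho = 0.864, permutation p 0.001, adjusted 0.0051), and with a normexp background these were r = 0.487 and 0.338.

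Foxd3 is the marker with the largest genotype difference. With S100b it gave r = 0.767 (permutation p 0.0053, adjusted 0.0132) and rho = 0.60 (permutation p 0.0556, adjusted 0.0935). Without the 2 farthest arrays, those with the lowest Foxd3 levels, r was 0.412. Leaving out single arrays gave r from 0.667 to 0.834, with adjusted permutation p from 0.0086 to 0.087. Among wild-type arrays alone r was 0.924 (exact permutation p 0.004, adjusted 0.0198). When each pair was computed without the 2 arrays farthest from the median of its first gene, 5 of 15 pairs passed, all among Erbb3, Ngfr, S100b and Fabp7, and without wild-type array 4 alone 4 did. The weakest pair, Sox2 and Fabp7, gave r = 0.256 (permutation p 0.448, adjusted 0.448) and rho = 0.282 (permutation p 0.404, adjusted 0.404), and r = −0.27 without the 2 farthest arrays.

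**Figure D3:**
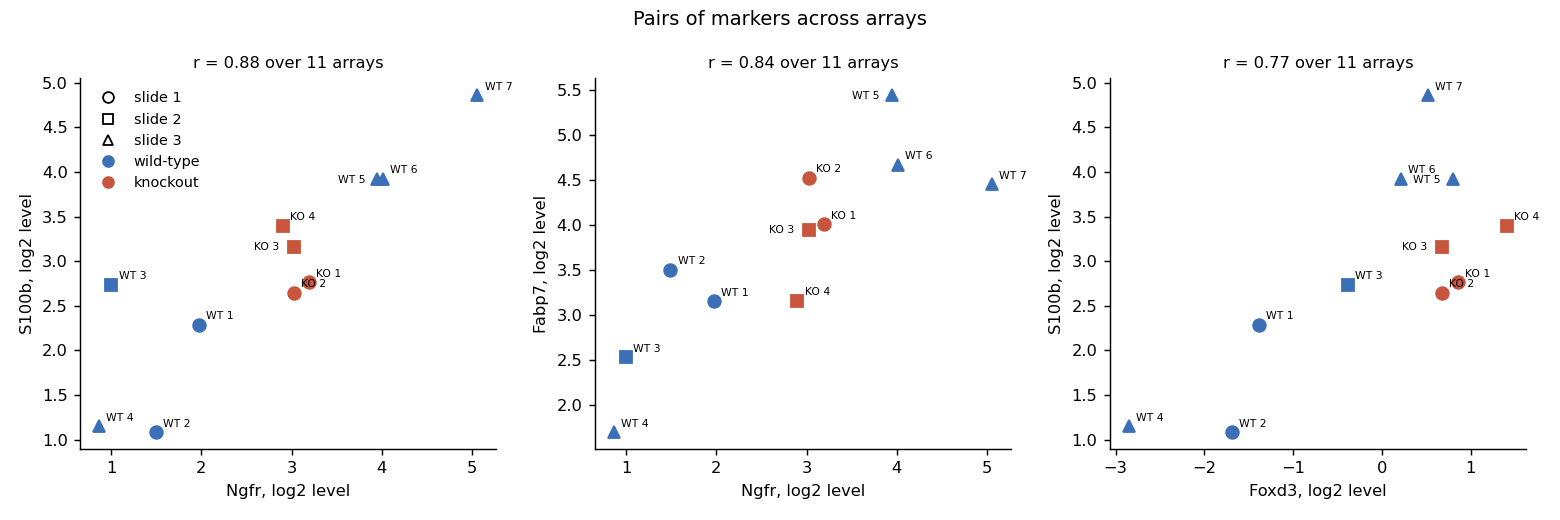
Levels of 3 pairs of markers on the 11 arrays, as log2 signal relative to the array's 75th percentile, with 1 point per array labelled by genotype and replicate, colour for genotype and shape for slide. In the pairs Ngfr with S100b and Ngfr with Fabp7 both genes are higher on wild-type arrays 5, 6 and 7 than on wild-type arrays 1 to 4. From wild-type array 5 to array 7, however, Ngfr goes from 3.95 to 5.06 and Fabp7 from 5.44 to 4.45. In the pair Foxd3 with S100b wild-type array 4 stands at the low end of both, at −2.85 and 1.15.

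The arrays can be ordered by the mean of the standardized levels of the 4 markers above background on all arrays, Foxd3, Ngfr, S100b and Fabp7. Wild-type arrays 7, 5 and 6 were highest, at 1.15, 1.01 and 0.74. The 4 knockout arrays followed within a narrow band, at 0.32, 0.30, 0.29 and 0.28 for arrays 2, 3, 1 and 4. The band is that of the mean and not of each marker. Knockout array 4 was the highest knockout array for Foxd3 and S100b, at 1.41 and 3.40, and the lowest for Ngfr and Fabp7, at 2.90 and 3.15. Wild-type arrays 1, 3, 2 and 4 were lowest, at −0.66, −0.71, −0.99 and −1.74. The knockout arrays spanned 0.28 to 0.32, whereas the wild-type arrays of slide 3 stood at both ends of the order.

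Genes whose pattern over the 11 arrays was most like that mean were Celf2, an RNA-binding splicing factor, with r = 0.965, Plekhb1 with 0.961, Mical1, an enzyme that oxidises actin, with 0.958, and Pdgfrb, the PDGF receptor of pericytes and mesenchymal cells, with 0.956, out of 12752 named genes. Heyl, a Notch target, had r = 0.954, Plekhg2 0.954, Tnfsf13 0.950 and Col1a1, a chain of type I collagen, 0.949. Over the 7 wild-type arrays alone, genes among the most alike were Plce1 (r = 0.993), Egfr (0.993) and Cxcl12 (0.991). Likeness is a description over these arrays. Of the lists of other cell types, the median r over 11 arrays was highest for the 13 capsule and stromal cell genes, at 0.760, followed by 0.578 for 20 other glial and myelin genes, 0.515 for 15 bridge cell and sympathoblast genes and 0.486 for 11 endothelial genes. For the 15 chromaffin cell genes it was 0.357. Among wild-type arrays the order was another, with 0.939 for the stromal, 0.864 for the chromaffin, 0.812 for the bridge cell and sympathoblast, 0.644 for the glial and 0.579 for the endothelial genes. The 12 adrenocortical genes ran the other way, at −0.775, and the median over all named genes was −0.074.

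The other glial and myelin genes include those of later Schwann cell stages. Of 22 tested, 17 had a fitted difference above 0, 5 below, and 0 were called, with a median of 0.90. Over all genes 43.1% were above 0 and 0.829% were called, with a median of −0.16. Serpine2, a protease inhibitor secreted by glia, had a difference of 1.82 ± 0.38 (SE, adjusted p 0.069 by limma). Without the slide term, where 2.86% of all genes were called, it was called, with a difference of 2.08 and an adjusted p of 0.0151 by limma. Its r with the marker mean was −0.07 over all arrays and −0.86 over the wild-type arrays. It was not well above background on wild-type array 3. Pou3f1, the POU factor of the promyelinating stage, had a difference of 2.29 ± 0.68 (SE, adjusted p 0.14), Cnp, a myelin enzyme, by 1.60 ± 0.53 (SE, adjusted p 0.172), and Egr2, the master factor of myelination, by 1.89 ± 0.80 (SE, adjusted p 0.252), all by limma. Gfap, Gap43, Olig1 and Gas7 were above background on 0 to 3 arrays and were not tested.

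Of the other neuregulin and ErbB signalling genes, 11 were tested, 8 had a fitted difference above 0, 3 below, and 0 were called. Over all genes 43.1% were above 0 and 0.829% were called. Erbb2, the partner of Erbb3, had a difference of 1.61 ± 0.62 (SE, adjusted p 0.221), Gab1, an adaptor, by 1.83 ± 0.72 (SE, adjusted p 0.228), and Grb2, another adaptor, by 0.70 ± 0.30 (SE, adjusted p 0.258), all by limma. For Erbb2 and Gab1 the difference as read was larger on slide 2, at 3.02 and 3.60, than on slide 1, at 0.67 and 0.66. Slide 2 rests on wild-type array 3, where Erbb2 was at −4.74 and Gab1 at −4.99. Both lay under the lowest level above background on that array, −3.11. The size of their differences on slide 2, and so of the fitted ones, is not settled. Nrg1, the ligand, had a difference of −1.89 ± 0.97 (SE, adjusted p 0.332 by limma) and was above background on 3 wild-type arrays and 1 knockout array.

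The lists on either side of the precursor state in the lineage are set here against a median of −0.16 and a share above 0 of 43.1% over all genes. Of 9 early neural crest genes 4 had a fitted difference above 0 and 5 below, with a median of −0.59. That median was −0.05 within slide 1 and −1.63 within slide 2, which held 1 wild-type array. Of 6 melanocyte genes 2 were above 0 and 4 below, with a median of −0.05 (0.23 without the slide term). The melanocyte median was −0.34 within slide 1 and −0.94 within slide 2. None of either list was called. Of 15 bridge cell and sympathoblast genes 4 were above 0 and 11 below, with a median of −0.27, which was also −0.27 within each slide. Of 15 chromaffin cell genes 2 were above and 13 below, with a median of −0.94, which was below 0 within each slide too. Again none was called. Pnmt, the enzyme that makes adrenaline, had a difference of −5.54 ± 1.44 (SE, adjusted p 0.108), and Scg2, a granin of secretory vesicles, by −2.59 ± 0.91 (SE, adjusted p 0.19), both by limma. Without the slide term the chromaffin median was −2.29, and 1 gene was called as lower, where 140 of all 21105 genes were. The summed level of the chromaffin list was highest on the same wild-type arrays of slide 3 that were highest for the precursor markers, at 11.28, 11.07 and 10.87 on arrays 5, 6 and 7, and lowest on knockout array 4, at 4.02.

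Markers of other cell types also differed between arrays. The summed level of the capsule and stromal list was 8.49 to 11.23 in wild-type and 9.58 to 10.78 in knockout arrays, with 12 to 13 of 13 genes above background on each array, wild-type arrays 5 and 7 highest and array 4 lowest, as for the markers. Of its 13 genes 9 had a fitted difference above 0, where 43.1% of all genes did, with a median of 0.92 and 0 called. The macrophage list ran from 5.57 to 8.10 in wild-type and from 9.54 to 10.28 in knockout arrays without overlap. Of all single genes, 4.1% had every knockout array above all 7 wild-type arrays. Of the 15 macrophage genes 11 to 14 were above background in wild-type and 14 to 15 in knockout arrays. On knockout array 3, and again on knockout array 4, a gene of the list had no value, its spot being an outlier. That gene is missing from the count and sum of that array. All 15 macrophage genes had a fitted difference above 0, where 43.1% of all genes did, with a median of 2.83. That median was 1.64 within slide 1 and 5.13 within slide 2, which held 1 wild-type array. Of the 15, 3 were called, Gpnmb, Trem2 and Spi1, where 0.602% of all genes were called as higher. Spi1 was above background on 0 of 7 wild-type arrays and Gpnmb on 2, so the size of their differences is not settled. The summed level of the 6 precursor markers ran from 2.90 to 6.43 in wild-type and from 4.90 to 5.29 in knockout arrays, with 4 to 6 and 5 to 6 above background. Whether stromal cells or macrophages in the sorted fraction take part in the marker differences was not tested.

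Of 14 adrenocortical genes 13 had a fitted difference below 0, where 12012 of all 21105 genes did. Of the 14, 1 was called as lower, Nr0b1, where 48 of all genes were. The summed level of the adrenocortical list was 8.12 to 11.79 in wild-type and 8.59 to 10.06 in knockout arrays. Among wild-type arrays it was lowest on arrays 5, 6 and 7, at 8.55, 8.12 and 9.63, where the precursor markers were highest. On knockout array 4 a gene of the list had no value, its spot being an outlier, and is missing from that sum. Of 11 endothelial genes 9 were above 0, of 8 erythroid genes 1, and of 9 genes of the central nervous system and other cells with SOX2 or FABP7 4. Their medians were 0.72, −0.43 and −0.15, with 0 called in each. Over all genes 43.1% were above 0, with a median of −0.16. Within slide 1 the medians of these lists were 0.16, 0.13 and 0.05. Within slide 2, which held 1 wild-type array, they were 1.57, −1.53 and −0.05. The 75th percentile of the signal on wild-type arrays 4, 5, 6 and 7 was 308, 166, 265 and 323. The share of probes above background on them was 57.5%, 46.3%, 50.7% and 54.1%. Whether signal strength bears on the low marker levels of array 4 was not tested. Slide 3 was wild-type only and was read with a later version of the scanner software, so slide, software and the wild-type arrays on it cannot be told apart.

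**Figure D4:**
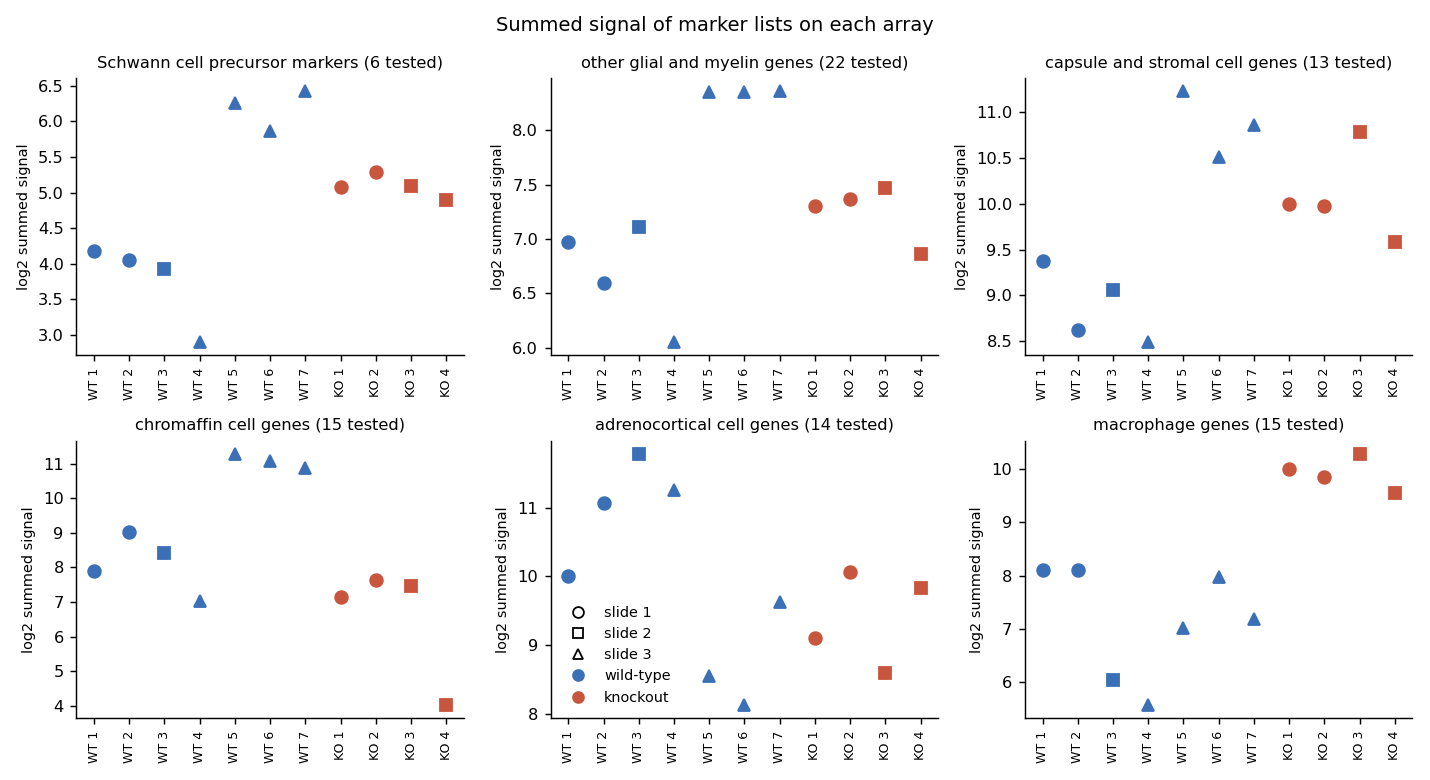
Summed signal of 6 gene lists on each array, as log2 of the sum of the signals of the tested genes relative to the array's 75th percentile, with colour for genotype and shape for slide. The precursor, glial, stromal and chromaffin lists are high on wild-type arrays 5, 6 and 7, the adrenocortical list is low there, and the macrophage list separates the 4 knockout arrays, at 9.54 to 10.28, from the 7 wild-type arrays, at 5.57 to 8.10.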

How the data were processed

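Sorted adrenal cells of 11 mice were measured on single-colour Agilent arrays, and the labels gave group, sex and replicate number, and the array's identity gave the slide. The deposited scanner files hold spot intensity from Agilent Feature Extraction, already background-subtracted, per the file headers. These give version 10.1.1.1 on slides 1 and 2 and 10.5.1.1 on slide 3; the submitters' processing notes list the latter alone. The authors' deposited table is on a log2 scale. After scaling by the 75th percentile and centring of each probe, the processed signals came within 0.01 of it for at least 99.8% of probes per array (column medians −0.166 to 0.901).

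Of 45018 spots, 43379 were not controls. Between 77 and 164 outlier spots per array were left out, none was saturated, spots of 1 probe were averaged on the log2 scale, and the 75th percentile over 41174 probes was subtracted. Names came through the RefSeq accession in the files and a gene table of GRCm38.p6 (24375 probes, 17016 genes). A gene was taken from its brightest probe and tested if that was well above background on at least 4 arrays, which left 21105.

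The genotype comparison used limma 3.58.1 under R 4.3.3 (lmFit, eBayes, genotype and slide as terms, two-sided, Benjamini-Hochberg over all genes, threshold 0.05). Correlations have 100000 permutations over 11 arrays and exact ones over 7. The members and gene lists were chosen with earlier results of these data known. Genes named are the members, up to 4 of a list with the smallest p, Star, and the 8 and 4 most like the members' mean; genes named as not tested were added after their values were seen, and Nr0b1, Gpnmb, Trem2 and Spi1 were the genes called in their lists. Results for some genes that this rule or the lists cover are not reported here. On simulated data over 21105 genes, the fit of genotype and slide called 0% of 66 genes changed 2-fold, 8.96% of 67 changed 4-fold and 38.8% of 67 changed 8-fold, with 1 false call. Alternatives concerned slide, sex, replicate number, background, scaling, filter, probe, table, weights, outlier spots, and leaving out each array. For normexp, median spot signals and an offset of 50 were used. The shared replicate numbers were checked and do not pair the arrays. Other software was Python 3.11.15 with scipy 1.17.1 for permutations, matplotlib 3.10.9 for figures, numpy 2.4.6 and pandas 2.3.3, and in R statmod 1.5.0 for random blocks.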

Additional observations from a re-analysis of the deposited data

How the results depend on the processing

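Of 6 markers called, 0 at the reported setting, array weights gave 1 (Foxd3, 2.31, adjusted p 0.00873 by limma), slides 1 and 2 alone 2, and leaving out single arrays 0 to 1, the 1 without wild-type array 4, and the other alternatives 0. The 175 genes called over the whole array became 604 without the slide term, 474 with slide as a random block, 27 with labelled sex as a further term, 34 with labelled males only, 627 with normexp, 93 with median scaling, 404 with genes above background on all 11 arrays, 1970 with array weights, 535 with slides 1 and 2 alone, and 10 to 561 with single arrays left out (10 without wild-type array 3, 561 without wild-type array 4). Within slide 1 and within slide 2 limma called 0 genes, with 3929 and 7621 at an unadjusted p under 0.05. The share called as higher was 72.6%, and 54.2% with array weights and 55.7% with genes above background on all 11 arrays. Reversed differences were Erbb3, −0.31 without the slide term and −0.23 with normexp, and Sox2, −0.12 with normexp. The pairs of markers past the threshold, 11 of 15, became 5 without the 2 farthest arrays, 5 with normexp, 1 with slides 1 and 2 alone, and 4 to 12 with single arrays left out. For Sox2 and Fabp7 r turned to −0.27 without the 2 farthest arrays, −0.0402 with normexp, and ran from −0.0544 to 0.517 with single arrays left out, lowest without wild-type array 4. The cause was not tested. With the replicate number as a block in place of slide, over 8 arrays, 186 genes and 0 of 6 markers were called; deviations of same-numbered arrays correlated at 0.183, 0.217, −0.006 and 0.185, not every array correlated best with its own number, and the arrays share only a number. Signal limits Cdh19, Sox2, Erbb3 and the second Ngfr probe, which lie near background, and the genotype difference rests on 3 wild-type arrays.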
